A study of Mus musculus with 12 samples.

Results

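The genes described here encode 8 collagen chains that do not build the thick striated fibrils themselves: the beaded-filament chains Col6a1, Col6a2 and Col6a3, the network-forming chains Col8a1 and Col8a2, and the fibril-associated chains Col12a1, Col14a1 and Col16a1. They were taken by symbol from the deposited table and are 8 of its 29462 genes and 8 of its 41 collagen chain genes, each on 1 row. The RNA came from primary aortic smooth muscle cells of the mouse, taken from global cystathionine gamma-lyase knockout mice (CSE KO, here KO) and from C57BL/6J mice (CSE WT, here WT). The enzyme, CSE, is the product of the Cth gene and produces hydrogen sulfide from cysteine. Cells of both genotypes were grown with fetal bovine serum and received angiotensin II, a vasoconstrictor peptide, at 1 uM for 24 h. Both groups thus share the treatment, and genotype is the difference that the labels give. Each genotype had 6 libraries of polyadenylated RNA. The labels give no age of the mice and do not state that each library is a separate animal or culture. The p-values therefore rest on the spread among libraries alone, and that spread may be technical.

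Type VI collagen is a heterotrimer of its alpha 1, alpha 2 and alpha 3 chains that assembles into beaded microfilaments around cells and links them to the surrounding matrix. Type VIII collagen is a short, network-forming collagen made by vascular and corneal cells, and in arteries it is known to be deposited by smooth muscle cells after injury. Types XII, XIV and XVI are fibril-associated collagens with interrupted triple helices: types XII and XIV sit on the surface of collagen I fibrils and influence their spacing and organisation, and type XVI is found in fibrillin- and collagen-containing matrix. Levels are in FPKM, fragments scaled to the length of the gene model and to the mapped fragments of the library, a unit that allows genes of different length to be compared.

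The libraries and their labels have limits that touch every value below. KO replicates 5 and 6 stood apart from the other 4 KO libraries: on the second principal component of all tested genes, which held 14.2% of the variance, they lay at 30.42 and 35.18 where KO replicates 1 to 4 lay between -18.62 and -14.87 and WT libraries between -5.76 and 3.67. The changes of the 8 genes and the counts of each gene list are therefore given with and without these libraries. Cth, the targeted gene, was at 0 to 0.02 FPKM in KO and 0 to 0.08 FPKM in WT libraries, too low to check the genotype labels. Each KO library held both Xist RNA (0.31 to 3.53 FPKM) and Y-linked RNA (Kdm5d at 0.98 to 1.38 FPKM), whereas WT libraries held Xist at 0.01 to 0.04 FPKM and Kdm5d at 2.86 to 3.05 FPKM. Within KO, Xist was at 2.31 to 3.53 FPKM in replicates 1 to 4, at 0.31 in replicate 5 and at 0.63 in replicate 6. Kdm5d was at 1.16 to 1.38 FPKM in KO replicates 1 to 4, at 0.98 in replicate 5 and at 1.11 in replicate 6. The groups thus also differed in sex-linked RNA, a difference that cannot be told apart from genotype here. Of 10 markers of contractile smooth muscle only Acta2 and Smtn passed the threshold for testing, and Myh11, the smooth muscle myosin, was at 0.0083 FPKM in KO and 0.013 FPKM in WT on average, so the smooth muscle label is not borne out by that defining gene. Acta2, smooth muscle actin, was at 75.28 to 145.52 FPKM in KO and 111.0 to 140.4 in WT. The FPKM of a library summed to 255538 to 281432, and how many reads lie behind them is not known.

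In KO cells, 3 of the 8 collagen genes were higher and 3 lower than in WT cells, and the changes crossed the class boundaries. Col12a1, Col6a3 and Col16a1 rose, by 4.13-, 3.50- and 1.73-fold in mean FPKM. Col14a1, Col8a1 and Col6a2 fell, by 4.91-, 1.79- and 1.22-fold. Col6a1, the most abundant of the 8, did not pass the test, and Col8a2 was near 0 in every library. The test was limma on log2(FPKM + 1) over the 11831 genes that reached 1 FPKM in 6 or more of the 12 libraries, with Benjamini-Hochberg adjustment over all of them and a threshold of 0.05. Over all tested genes 63.5% passed, 32.6% as higher and 30.9% as lower in KO, so 6 called of the 7 collagen genes tested is a share to be read against a transcriptome in which most genes differed. The 6 KO values lay wholly on 1 side of the 6 WT values in these same 6 genes, as they did in 46.4% of all genes tested (23.8% with KO above and 22.5% with KO below). With KO replicates 1 to 4 alone the same 3 genes were called higher and the same 3 lower, where 77.1% of all genes passed, 39.9% as higher and 37.1% as lower, and the 6 genes again showed no overlap with WT, as did 66% of all genes. Col6a3 entered the test only through its KO values, since all its WT values were under 1 FPKM, and a call of such a gene is not independent of that threshold. The same holds for Col14a1, which reached 1 FPKM in 6 WT libraries but in only 4 KO libraries. Its KO values alone would not have met the threshold. The median change of the 7 was -0.21 on the log2 scale, against 0.01 for all tested genes, and with 3 rises and 3 falls it describes no common direction.

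**Figure D1:**
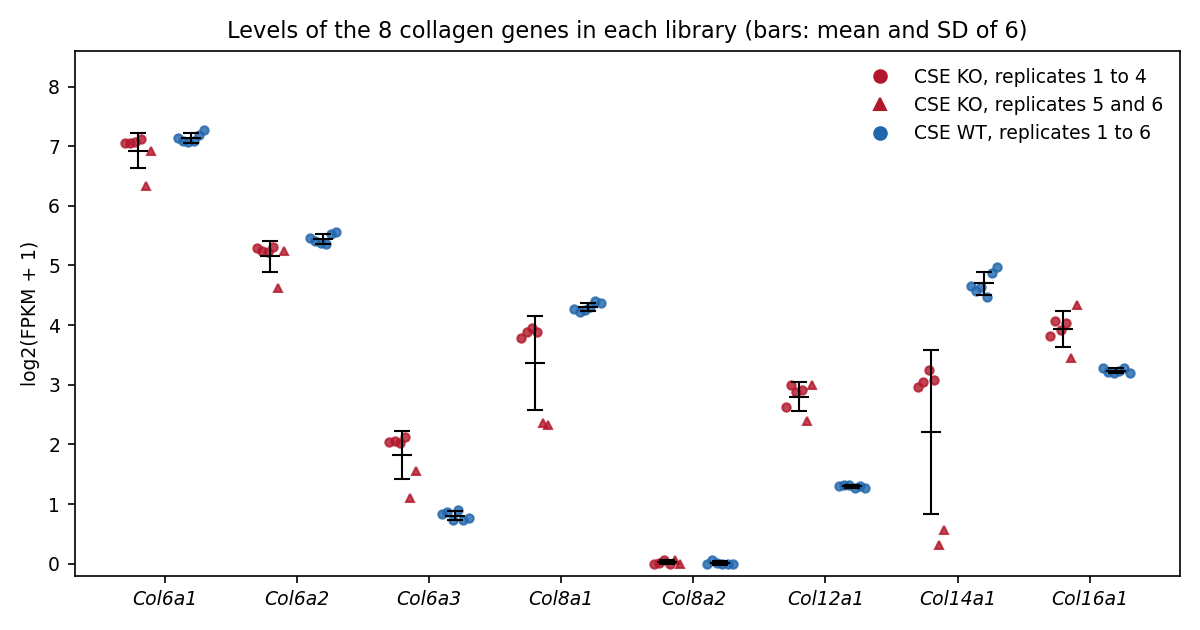
Levels of the 8 collagen genes as log2(FPKM + 1) on the vertical axis, with a point for each library, KO in red to the left and WT in blue to the right, and bars for the mean and SD of 6. KO replicates 5 and 6, drawn as triangles, lay far below the other KO libraries for Col14a1 and Col8a1, while the 6 WT points of each gene lay close together.

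The 3 type VI chain genes changed unequally. Col6a1, which spans 76708792 to 76726168 of chromosome 10 (GRCm38, GENCODE M21, minus strand), and Col6a2, on the same strand from 76595762 to 76623630, are neighbours 85161 bases apart. Col6a3 lies on chromosome 1 from 90765923 to 90843971, also on the minus strand. The coding sequence of its longest transcript is 9852 bases, against 3075 bases for Col6a1 and 3102 bases for Col6a2. Stretches around the starts of the 3 genes (RefSeq, GRCm38.p6, from 250 bases before to 50 after the start, 5′ to 3′ on the gene's own strand) are shown because the 3 chains meet in 1 protein while their RNA levels and changes differed. Capitals mark matches, on either strand, to the AP-1 site TGANTCA, the GC box GGGCGG, the CCAAT box CCAAT or the TATA box TATAAA, and they run on where matches overlap; on the printed strand a GC box may read CCGCCC.
Col6a1 (chr10:76725995-76726294): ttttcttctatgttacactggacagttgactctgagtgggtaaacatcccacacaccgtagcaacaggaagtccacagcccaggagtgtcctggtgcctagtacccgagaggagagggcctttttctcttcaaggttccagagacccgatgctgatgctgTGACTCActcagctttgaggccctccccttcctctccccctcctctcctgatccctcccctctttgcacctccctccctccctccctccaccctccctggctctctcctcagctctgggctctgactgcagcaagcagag
Col6a2 (chr10:76623355-76623654): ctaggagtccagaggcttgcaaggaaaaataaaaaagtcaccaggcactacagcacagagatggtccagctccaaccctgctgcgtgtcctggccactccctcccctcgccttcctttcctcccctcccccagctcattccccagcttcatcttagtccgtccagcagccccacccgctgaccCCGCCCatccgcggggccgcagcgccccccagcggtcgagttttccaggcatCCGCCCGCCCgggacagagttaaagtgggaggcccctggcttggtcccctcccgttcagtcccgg
Col6a3 (chr1:90843922-90844221): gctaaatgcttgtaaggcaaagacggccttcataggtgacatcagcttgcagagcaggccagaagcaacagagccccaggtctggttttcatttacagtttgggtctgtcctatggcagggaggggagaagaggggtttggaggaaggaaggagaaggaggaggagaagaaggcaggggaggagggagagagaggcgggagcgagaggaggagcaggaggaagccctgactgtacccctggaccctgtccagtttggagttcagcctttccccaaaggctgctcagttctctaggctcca

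The 3 windows shared none of these motifs. The Col6a1 window held 1 AP-1 match, which begins at position -90 relative to the RefSeq start, and no other motif. That start and the one of the Col6a2 window printed above lie inside the GENCODE spans of these genes. The Col6a1 match also lies inside the GENCODE span, so its position relative to a start depends on the annotation. The Col6a2 window held 3 GC boxes, of which 2 overlap, and the Col6a3 window held no match to any of the 4. Of all 32851 promoter windows in the table, 7.81% held an AP-1 match, 35.7% a GC box, 37.4% a CCAAT box and 13.6% a TATA box. The windows had 57.3, 64.3 and 56.3% G and C bases for Col6a1, Col6a2 and Col6a3, with 3, 16 and 3 CpG dinucleotides, against a median of 52.7% and 7 CpG over all windows. Col6a2 has another listed start, with the window chr10:76623581-76623880. That window held 1 GC box, 56.7% G and C bases and 6 CpG, so the Col6a2 values depend on the start chosen. Col8a1, Col8a2 and Col16a1 also have entries, and Col12a1 and Col14a1 do not. These matches are letters in a window and no factor was measured at them.

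Col6a1, the alpha 1 chain, was at 131.25 to 138.89 FPKM in KO replicates 1 to 4, at 79.82 in KO replicate 5 and at 119.85 in KO replicate 6, with a median of 131.85 over the 6, against 132.64 to 153.52 FPKM in WT (median 137.16). KO replicate 5 was the lowest of the 12 libraries, and the values of the genotypes overlapped. The mean was 122.6 ± 21.9 FPKM in KO and 139.9 ± 7.96 in WT (SD, n = 6 each), a log2 change of -0.21 ± 0.12 SE that did not pass (limma adjusted p = 0.13). In an exact permutation test of this gene alone, over all 924 assignments of the libraries, the two-sided p was 0.039 before any adjustment, and without KO replicate 5 the change was -0.09. With KO replicates 1 to 4 alone the log2 change was -0.06 (limma adjusted p = 0.19). Col6a1 stood above 97.5% of the tested genes by mean level in KO and above 97.7% in WT.

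Col6a2, the alpha 2 chain, was at 36.64 to 38.64 FPKM in KO replicates 1 to 4, at 23.71 in KO replicate 5 and at 36.83 in KO replicate 6 (median 36.7), against 39.84 to 46.49 FPKM in WT (median 42.3). All KO values lay below all WT values, but the highest KO and the lowest WT library were close. The mean fell to 35.1 ± 5.63 FPKM in KO, against 42.8 ± 2.61 in WT (log2 change -0.29 ± 0.10 SE, limma adjusted p = 0.025). Without KO replicate 5 the log2 change was -0.19 (adjusted p = 0.0041), and KO replicates 1 to 4 alone gave -0.18 (adjusted p = 0.0019). The call was lost without WT replicate 5 or WT replicate 6 (adjusted p = 0.051 and 0.055), and likewise when the replicate number entered as a block (0.052).

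Col6a3, the large alpha 3 chain whose C-terminal fragment is known as endotrophin, was at 3.05 to 3.37 FPKM in KO replicates 1 to 4, at 1.15 in KO replicate 5 and at 1.94 in KO replicate 6 (median 3.08), against 0.66 to 0.86 FPKM in WT (median 0.745). Every KO library was above every WT library, and KO replicates 5 and 6 were the lowest of the KO group. The mean rose to 2.63 ± 0.886 FPKM in KO, against 0.752 ± 0.0842 in WT (3.50-fold, log2 change 1.01 ± 0.15 SE, limma adjusted p = 6.5e-05). On the log2(FPKM + 0.1) scale, which compresses low values less, the change was 1.60, and 1.71 with 0.01 added. KO replicates 1 to 4 alone had a mean of 3.18 FPKM, 4.23-fold that of WT (log2 change of FPKM + 1 of 1.255, limma adjusted p = 1.7e-10).

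Beside the other chains of the trimer, Col6a3 RNA was scarce in cells of both genotypes. The mean of Col6a1 and Col6a2 exceeded Col6a3 by 26.3- to 45.0-fold in KO libraries and by 101.2- to 141.7-fold in WT libraries. As a log2 ratio, with 0.1 added to both values, Col6a3 over that mean was -4.92 ± 0.317 in KO and -6.75 ± 0.191 in WT (SD, n = 6 each), a difference of 1.84 with no overlap of the groups. The exact permutation test gave p = 0.00216, two-sided, the smallest that 6 against 6 libraries allow, and 0.00649 after adjustment over the 3 ratios between chains that were computed. The ratio of Col6a1 to Col6a2 moved little: it was 3.49 ± 0.151 in KO and 3.27 ± 0.0576 in WT, with overlapping values. Its log2 difference of 0.09 had an exact permutation p of 0.0195, also after adjustment over the 3 ratios. With KO replicates 1 to 4 only, this difference was 0.13 and that of the Col6a3 ratio 2.04 (exact permutation p = 0.0048 each, unadjusted). The log2 ratio of Col6a1 to Col6a2 was then 1.798 to 1.863 in KO, above the 1.683 to 1.75 of WT.

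**Figure D2:**
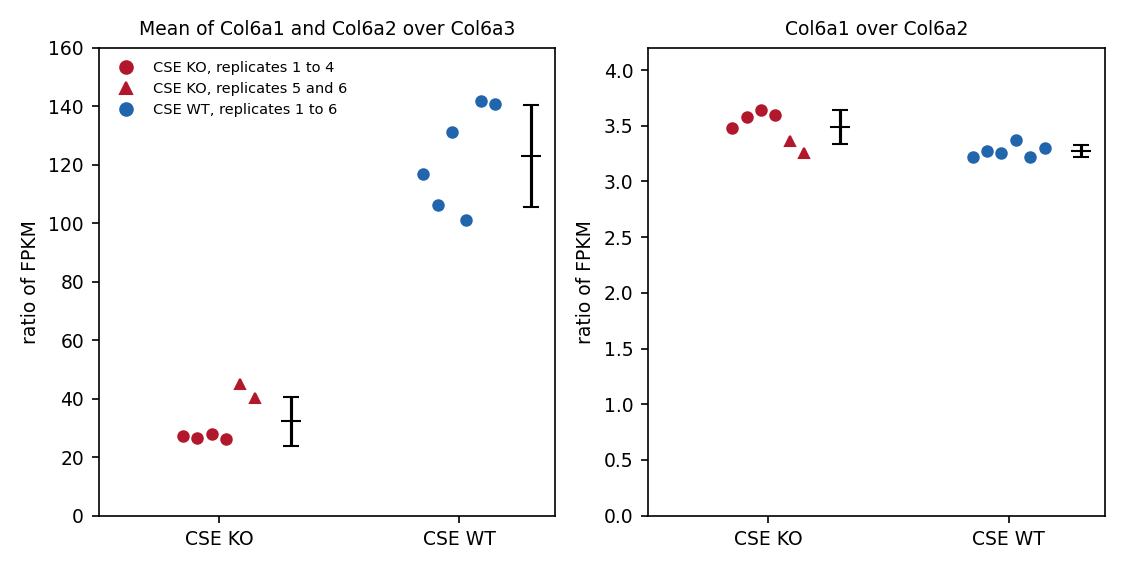
Ratios of FPKM between the type VI chain genes in each library, KO in red at left and WT in blue at right of each panel, with bars for the mean and SD of 6. The mean of Col6a1 and Col6a2 was 26.3 to 45.0 times Col6a3 in KO libraries and 101.2 to 141.7 times in WT libraries (left), while Col6a1 over Col6a2 lay between 3.22 and 3.64 in all 12 (right).

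Of the type VIII chains Col8a1 was well above 0, and Col8a2 was listed at 0 or close to it. Col8a1 (chromosome 16, 57624258 to 57754737, minus strand) was at 12.79 to 14.52 FPKM in KO replicates 1 to 4, at 4.13 in KO replicate 5 and at 4.01 in KO replicate 6 (median 13.25), against 17.61 to 20.21 FPKM in WT (median 18.6). All KO libraries were below all WT libraries, and KO replicates 5 and 6 held about 30.1 and 29.3% of the mean of the other KO libraries. The mean fell to 10.5 ± 5.01 FPKM in KO, against 18.8 ± 1.00 in WT (log2 change -0.94 ± 0.29 SE, limma adjusted p = 0.012). For KO replicates 1 to 4 alone the log2 change was -0.43 ± 0.04 SE (adjusted p = 2.2e-06). Col8a2 (chromosome 4, 126286793 to 126314330, plus strand), the alpha 2 chain that can form trimers with alpha 1 or with itself, was listed at 0 in 7 of the 12 libraries and reached at most 0.05 FPKM in KO and in WT. It was not tested across genes, and the exact permutation p was 0.773. The log2 ratio of Col8a1 to Col8a2 was 6.33 ± 0.950 in KO and 7.44 ± 0.292 in WT with 0.1 added (exact permutation p = 0.00866, 0.013 adjusted over the 3 ratios), a difference of -1.11 that was -0.51 with KO replicates 1 to 4 only. Since Col8a2 is near 0, this ratio depends on the amount added: with 0.01 added the difference of -1.42 did not pass (exact permutation p = 0.095). Every Col8a2 value was below the 0.1 added, so the ratio mainly repeats the fall of Col8a1. The log2 change of Col8a1 itself was -1.03 with 0.1 added. The test of this ratio therefore cannot show a change in the balance of the 2 chains.

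The 2 fibril-associated collagens that coat fibrils, types XII and XIV, moved in opposite directions. Col12a1 (chromosome 9, 79598991 to 79718831, minus strand) was at 5.16 to 6.99 FPKM in KO replicates 1 to 4, at 4.26 in KO replicate 5 and at 6.96 in KO replicate 6 (median 6.43), against 1.41 to 1.51 FPKM in WT (median 1.47). The lowest KO library was well above the highest WT library. Col12a1 rose to 6.04 ± 1.10 FPKM in KO, against 1.46 ± 0.0397 in WT (log2 change 1.50 ± 0.09 SE, limma adjusted p = 1.5e-08), and KO replicates 1 to 4 alone gave 1.55. With all 6 KO libraries it was the largest rise of the 8 genes, by fold and on the log2(FPKM + 1) scale. With KO replicates 1 to 4 only, the folds of Col12a1 and Col6a3 were close, at 4.28 and 4.23.

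Col14a1 (chromosome 15, 55307750 to 55520803, plus strand), whose product binds the proteoglycan decorin and is used as a marker of fibroblasts, had the largest fall. It was at 6.82 to 8.49 FPKM in KO replicates 1 to 4, at 0.24 in KO replicate 5 and at 0.48 in KO replicate 6 (median 7.05), against 21.13 to 30.57 FPKM in WT (median 24.1). The KO libraries thus fell into 2 levels, both below every WT library. The mean was 5.13 ± 3.73 FPKM in KO and 25.2 ± 3.59 in WT (log2 change -2.50 ± 0.50 SE, limma adjusted p = 0.00066). With KO replicates 1 to 4 only, the mean of 7.51 FPKM was 3.35-fold under that of WT (log2 change -1.61 ± 0.09 SE, adjusted p = 8e-09). Col12a1 over Col14a1 was 0.748 to 17.8 in KO libraries and 0.0465 to 0.0667 in WT libraries. It exceeded 1 only in KO replicates 5 and 6.

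Col16a1 (chromosome 4, 130047840 to 130099283, plus strand), whose product is bound by collagen-binding integrins, was at 13.08 to 15.73 FPKM in KO replicates 1 to 4, at 9.91 in KO replicate 5 and at 19.19 in KO replicate 6 (median 14.7), against 8.15 to 8.74 FPKM in WT (median 8.34). Every KO library was above every WT library, and here KO replicates 5 and 6 were the lowest and the highest of their group. The mean rose to 14.6 ± 3.08 FPKM in KO, against 8.41 ± 0.272 in WT (log2 change 0.70 ± 0.11 SE, limma adjusted p = 0.00012). KO replicates 1 to 4 alone gave a log2 change of 0.72 (limma adjusted p = 3.1e-08). None of the 8 genes shares exon bases with another gene in GENCODE M21, although antisense or unspliced genes lie in the introns of Col6a3, Col12a1 and Col14a1.

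**Figure D3:**
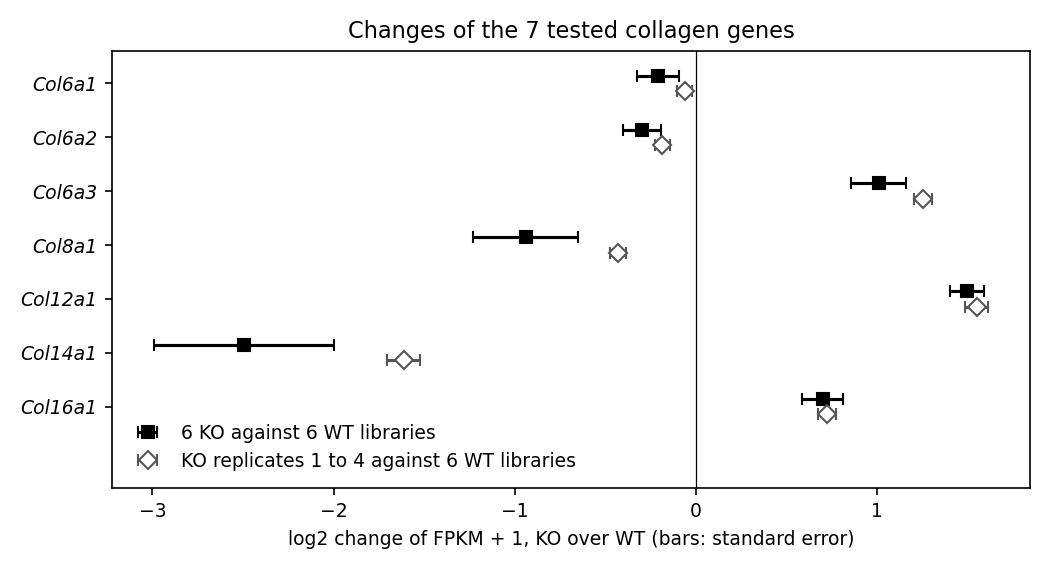
Change of each of the 7 tested genes on the log2(FPKM + 1) scale, KO over WT, with its standard error, from all 12 libraries (filled squares) and with KO replicates 1 to 4 only (open diamonds). Directions were the same in both fits, and the falls of Col14a1 and Col8a1 were smaller without KO replicates 5 and 6 (-1.61 and -0.43, against -2.50 and -0.94).

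The spread among KO libraries differed greatly between the genes. The coefficient of variation over the 6 KO libraries was 72.8% for Col14a1, 47.7% for Col8a1, 33.6% for Col6a3 and 16.1 to 21.2% for Col6a1, Col6a2, Col12a1 and Col16a1, against a median of 16.3% over all tested genes. Over the 6 WT libraries it was 2.72 to 14.3% for the same 7 genes, with a median of 6.47% over all genes. KO replicate 5 was below each of KO replicates 1 to 4 in 7 of the 8 genes, Col8a2 being the exception, and KO replicate 6 in 4. Over all tested genes KO replicate 5 was below those 4 libraries in 42.1% and KO replicate 6 in 47.5%. KO replicate 6 exceeded KO replicate 5 in 6 of the 8 genes, all but Col8a1 and Col8a2. The share over all tested genes was not computed for this comparison, so it is not read as a trait of the collagen genes. Mki67, a marker of cycling cells, moved with this split. It was at 14.18 to 18.00 FPKM in KO replicates 1 to 4, 31.46 in KO replicate 5 and 119.95 in KO replicate 6. In WT, Mki67 was at 20.13 to 27.48 FPKM. Xist was also lower in KO replicates 5 and 6 than in the other KO libraries. The part of either gene in the levels of the collagen genes was not tested.

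**Figure D4:**
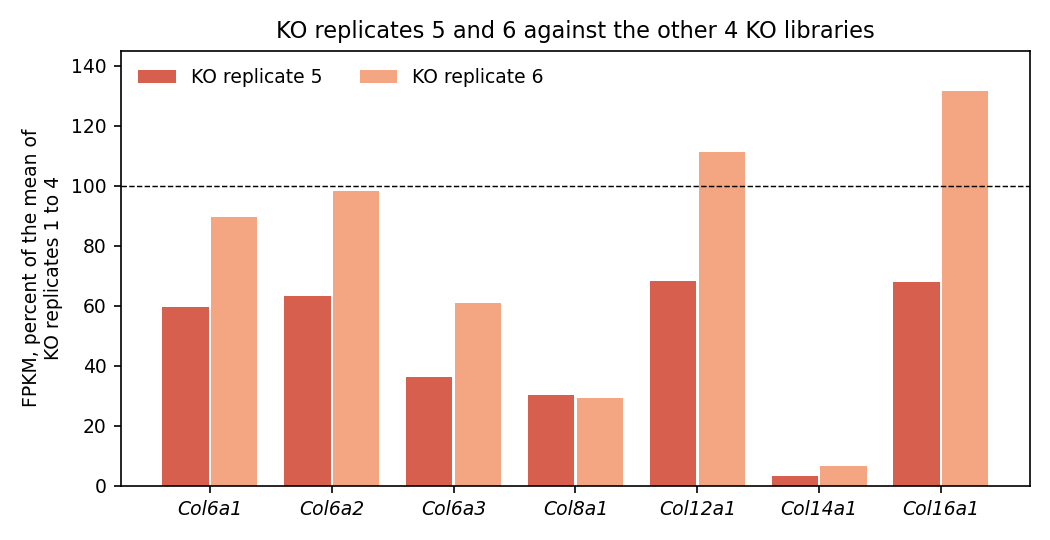
FPKM of KO replicates 5 and 6 as a percent of the mean of KO replicates 1 to 4 (dashed line at 100%) for the 7 tested genes. Col14a1 was at 3.20 and 6.39% and Col8a1 at 30.1 and 29.3%, while Col16a1 was at 68.0% in KO replicate 5 and 131.7% in KO replicate 6.

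The order of the 8 genes by level was not the same in the genotypes. In KO it ran Col6a1, Col6a2, Col16a1, Col8a1, Col12a1, Col14a1, Col6a3 and Col8a2. Over the 6 KO libraries the ranges of adjacent genes overlapped between Col16a1 and Col8a1, Col8a1 and Col12a1, Col12a1 and Col14a1, and Col14a1 and Col6a3. Within single KO libraries, Col16a1 was above Col8a1 in 5 and Col8a1 above Col12a1 in 4. Col12a1 was above Col14a1 in 2 and Col14a1 above Col6a3 in 4, so none of these adjacent ranks held in all 6. Genes farther apart in this run could be separate: Col16a1 lay wholly above Col12a1, Col14a1 and Col6a3, and Col8a1 and Col12a1 wholly above Col6a3. In WT it ran Col6a1, Col6a2, Col14a1, Col8a1, Col16a1, Col12a1, Col6a3 and Col8a2, and no 2 neighbours overlapped. Col14a1 thus stood in the sixth place in KO and in the third in WT. Its place in KO depended on replicates 5 and 6. In KO replicates 1 to 4 its mean of 7.51 FPKM was above that of Col12a1, 6.25 FPKM. By mean level Col14a1 was above 41.3% of tested genes in KO and above 85.8% in WT, and Col12a1 above 47.0% in KO and above 9.74% in WT.

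As a share of collagen RNA the 8 genes were smaller in KO. They made up 13.5 to 15.8% of the summed FPKM of all collagen chain genes in KO libraries and 18.5 to 20.6% in WT libraries, with no overlap. Their own sum was 123.3 to 223.9 FPKM in KO and 224.8 to 260.6 in WT, and the sum over all collagen genes was 802.9 to 1637 FPKM in KO and 1195 to 1268 in WT. In KO replicates 1 to 4 the sum of the 8 averaged 216.7 FPKM, against 237.3 in WT. The collagen sum averaged 1580 FPKM there, above the 1232 of WT. KO replicate 5 held 123.3 of 802.9 FPKM and KO replicate 6 held 189.3 of 1200. On the log2 scale the share was lower in KO by a mean difference of -0.43, a description with no test. Col6a1 alone was 61.1 to 64.8% of the 8 genes' FPKM in KO and 58.1 to 59.7% in WT. Col3a1, the type III fibrillar chain, was 2.11 to 9.64% of collagen FPKM in KO and 0.0362 to 0.0560% in WT, and such shares depend on each other because they sum to the whole.

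**Figure D5:**
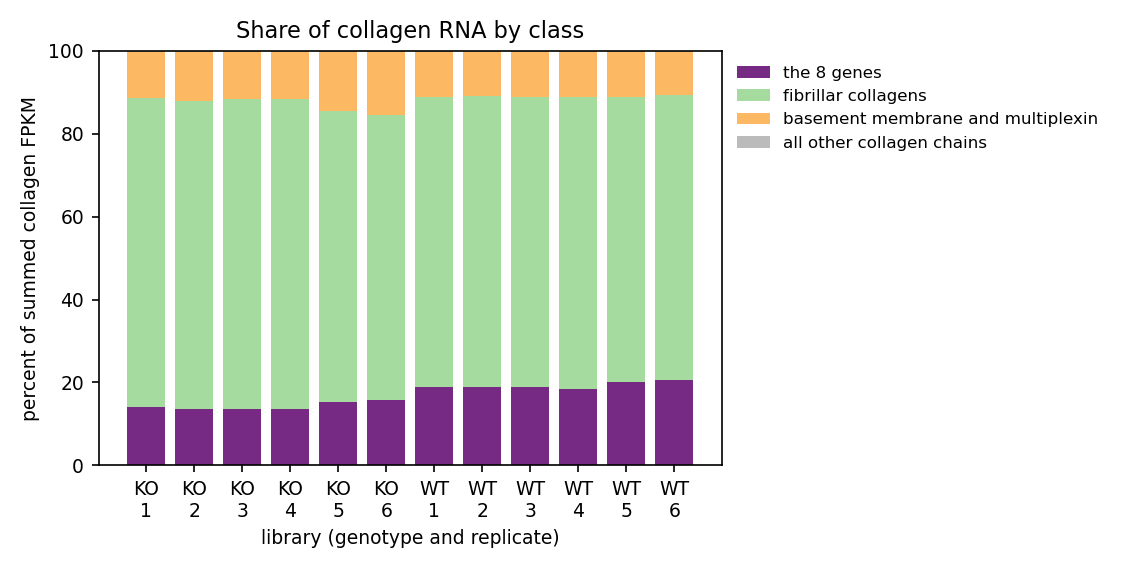
Share of the summed FPKM of all collagen chain genes in each library, in percent, by class of collagen, KO libraries at left and WT libraries at right. The 8 genes (purple) held 13.5 to 15.8% in KO and 18.5 to 20.6% in WT.

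The remaining collagen chains are given for comparison. In this and the following lists, Col7a1, Col3a1, Col11a1, Dpt, Cd34, Upk3b, Wt1 and Csf1r were under 1 FPKM in every WT library and entered the test through KO alone. Col15a1, Cspg4 and Fmod were under 1 FPKM in every KO library and entered through WT alone. Cdh1 was under 1 FPKM in some KO libraries (0.48 to 1.18) and Pdgfra in some WT libraries (0.86 to 1.49). The calls of all these genes, like those of Col6a3 and Col14a1, are not independent of the threshold for testing. Of 12 other chains of the same classes, 10 were in the table and only Col7a1, the anchoring-fibril collagen, could be tested; it rose to 1.29 ± 0.197 FPKM in KO, against 0.448 ± 0.0725 in WT (limma adjusted p = 1.3e-06). The alternative type VI chains Col6a4, Col6a5 and Col6a6, which can take the place of alpha 3, reached 0.30, 0.05 and 0.10 FPKM at most in KO and were listed at 0 in every WT library. Of 6 tested fibrillar chains Col5a2, Col3a1 and Col11a1 rose and Col1a2 fell, while Col1a1 and Col5a1 did not pass; with KO replicates 1 to 4 only, 4 were higher and 1 lower. Col1a1, the major chain of the fibrils that types XII and XIV coat, was at 624 ± 141.4 FPKM in KO and 487.7 ± 10.2 in WT (adjusted p = 0.069), and Col1a2 at 172.6 ± 65.3 in KO and 298.9 ± 7.75 in WT (adjusted p = 0.0051). Of 6 tested basement membrane and multiplexin chains Col4a1, Col4a2 and Col18a1 rose, Col15a1 and Col4a6 fell and Col4a5 did not pass, and the counts were the same with KO replicates 1 to 4 only.

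Among 12 receptors for these collagens 7 were tested: 4 fell, Antxr2 rose, and Antxr1 and Ddr2 did not pass, with a median change of -0.27, and KO replicates 1 to 4 alone gave the same counts. Cspg4, the NG2 proteoglycan that binds type VI collagen, fell to 0.427 ± 0.0585 FPKM in KO, against 2.31 ± 0.217 in WT (log2 change -1.21, limma adjusted p = 6.5e-10). Antxr2, which takes up type VI collagen for degradation, rose to 4.54 ± 0.333 FPKM in KO, against 2.30 ± 0.166 in WT (log2 change 0.75, adjusted p = 8.1e-08). Ddr1, a collagen receptor kinase, fell to 37.4 ± 6.33 FPKM in KO, against 70.4 ± 2.83 in WT, and Mrc2, an endocytic collagen receptor, and Itgb1, the beta 1 integrin chain, also fell. The integrin chains Itga1, Itga2, Itga10 and Itga11, which bind collagens with beta 1, were all below the threshold for testing.

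Of 12 matrix partners 8 were tested, with 2 rises, 2 falls and a median change of -0.06. With KO replicates 1 to 4 only, all 8 passed, 4 as higher and 4 as lower. Fmod, fibromodulin, which binds collagen fibrils, fell to 0.108 ± 0.0417 FPKM in KO, against 15.1 ± 2.10 in WT, and Fn1, fibronectin, fell to 367.1 ± 84.9 FPKM in KO, against 1113 ± 38.9 in WT (limma adjusted p = 5.3e-07). Bgn, biglycan, which binds type VI collagen, rose to 483.2 ± 85.0 FPKM in KO, against 363.2 ± 19.5 in WT (adjusted p = 0.0059), and Tnc rose too. Dcn, decorin, the partner of types VI and XIV, was at 131.51 to 151.34 FPKM in KO replicates 1 to 4, at 26.69 and 22.08 in KO replicates 5 and 6 and at 68.5 ± 6.74 in WT (adjusted p = 0.73). Tnxb, tenascin X, which bridges types XII and XIV to fibrils, was at 11.3 ± 4.34 FPKM in KO and 9.45 ± 1.45 in WT (adjusted p = 0.62), and Matn2 and Hspg2 did not pass either.

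Of 20 genes for chain modification, folding and secretion 19 were tested, 8 rose, 3 fell and 8 did not pass, with a median change of 0.10; with KO replicates 1 to 4 only, 11 were higher and 3 lower. Plod3, the lysyl hydroxylase and glycosyltransferase on which type VI secretion depends, rose to 29.8 ± 1.09 FPKM in KO, against 14.1 ± 0.543 in WT (log2 change 1.03, limma adjusted p = 3.7e-10). Serpinh1, the collagen chaperone HSP47, rose to 271.7 ± 5.09 FPKM in KO, against 189.3 ± 3.89 in WT, and Plod1 and Plod2 rose as well. P4ha3, a prolyl hydroxylase subunit, fell to 14.1 ± 1.19 FPKM in KO, against 29.9 ± 1.60 in WT, and Fkbp10 and Colgalt1 were the other 2 that fell. Bmp1, a protease that processes collagens, rose to 24.2 ± 6.87 FPKM in KO, against 12.1 ± 0.412 in WT (adjusted p = 0.00048).

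Markers of other cell types moved with the genotypes, and their part in the collagen results was not tested. In bulk RNA, fewer cells of a type and less RNA per cell cannot be told apart. Of 10 fibroblast markers 7 were tested: Pdgfra, Dpt and Cd34 rose, Col1a2 and Ly6a fell, and Dcn and Col1a1 did not pass. With KO replicates 1 to 4 only, all 7 passed, 5 as higher and 2 as lower, and Col1a1 was at 666.86 to 738.65 FPKM in these KO libraries and at 473.07 to 502.53 in WT. Their summed level was 543.9 to 1265 FPKM in KO and 1020 to 1078 in WT, and Pi16 and Lum were at 0.06 FPKM or less in KO libraries and at 0.0367 and 0.0467 FPKM on average in WT. Of 10 epithelial and mesothelial markers 5 were tested, Cdh1, Krt19 and Msln fell and Upk3b and Wt1 rose, with the same counts for KO replicates 1 to 4, and the sum was 44.6 to 68.1 FPKM in KO and 146.1 to 154.8 in WT. The 7 macrophage markers summed to 41.2 to 57.2 FPKM in KO and 39.1 to 47.0 in WT, mostly from Cd14, with Ptprc and Adgre1 at 0.015 and 0.0067 FPKM on average in KO and 0.015 and 0 in WT. Of 3 tested macrophage markers Cd68 and Csf1r rose, and with KO replicates 1 to 4 only all 3 were higher. None of the 8 endothelial markers reached the threshold for testing, and their sum was 0.59 to 0.99 FPKM in KO and 0.13 to 0.30 in WT. The KO sum came mostly from Kdr, at 0.623 FPKM on average in KO and 0.0033 in WT. Cdh5 and Vwf also had higher means in KO, while Pecam1, Tek, Emcn, Tie1 and Cldn5 had lower ones, all at 0.22 FPKM or less. The 10 contractile markers summed to 86.4 to 168.8 FPKM in KO and 123.9 to 152.6 in WT, mostly from Acta2, which did not pass (limma adjusted p = 0.14). Acta2 was at 75.28 to 85.09 FPKM in KO replicates 1 to 4, below every WT library, and at 141.13 and 145.52 in KO replicates 5 and 6, above every WT library. With KO replicates 1 to 4 only, both tested contractile markers were lower in KO.

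For the called collagen genes, similar profiles over the 12 libraries were found among 10360 tested genes, by the root mean square difference of log2(FPKM + 1) after centring each gene. The nearest to Col14a1 were Lcn2, a secreted siderophore-binding protein, and Npy1r, a receptor for neuropeptide Y, at 0.22 and 0.31. Lcn2 was at 41.4 ± 25.7 FPKM in KO, with 8.30 and 8.67 in replicates 5 and 6, and at 238.8 ± 19.4 in WT. For Col12a1 they were Syt7 and Speg at 0.07 and 0.09, and Emilin1, an elastic fibre glycoprotein, lay near Col6a3 at 0.09. Syt7 was at 1.92 ± 0.368 FPKM in KO and 0.0067 ± 0.0052 in WT, and Speg at 3.62 ± 0.697 in KO and 0.665 ± 0.0867 in WT. Both were under 1 FPKM in WT on average, so their place among the tested genes rests on KO. Their closeness to Col12a1 holds on the scale with 1 FPKM added and does not mean similar folds. Itih2, which binds hyaluronan, and Tcp11l2 were nearest to Col8a1 at 0.08 and 0.09. Myrf and the mechanosensitive channel gene Piezo1 were nearest to Col16a1, both at 0.10, and Rere and Zfp507 to Col6a2 at 0.06 and 0.07. The 2 genes given for Col14a1 were farther from it than those given for the other 5 collagen genes were from theirs. The distance is not scaled to the size of a change, and Col14a1 had the largest change and KO spread of the called collagen genes. Distances of different collagen genes are therefore not directly comparable.

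The authors' deposited table holds its own comparison, a ratio of WT over KO with a q-value. There, Col12a1 (log2 ratio -2.04), Col6a3 (-1.81) and Col14a1 (2.30) were marked significant, as were 15% of all 29462 genes in the authors' deposited table. All marked genes had q-values up to 0.05 and log2 ratios of 1 or more in size. Col16a1, Col8a1 and Col6a2 had q-values of 0.00, 0.01 and 0.02 in the authors' deposited table with log2 ratios of -0.79, 0.84 and 0.29, and were not marked. Col6a1 had a q-value of 0.20 and Col8a2 of 0.82 in the authors' deposited table.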

How the data were processed

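Polyadenylated RNA made up the 12 libraries, sequenced as read pairs after dUTP strand marking, per the labels' protocols; the sources used here do not say if strand entered the counting. Per the submitters' processing notes the tools were edgeR, DESeq2, StringTie 1.3.4d, HISAT2 2.0.4 and cutadapt 1.9, with mm9 as build and no roles stated. The authors deposited FPKM to 2 decimals, with no counts, so depth in reads and counting intervals are unknown, a value of 0 is only listed at 0, and each FPKM depends on what other genes take up. The same deposited table gives the authors' ratio of mean FPKM (WT over KO) and the log2 of it, with p-values and q-values from a test not given in the sources used here.

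Gene IDs were matched to GENCODE M21 (29384 of 29462); positions are those of GRCm38, not of mm9. The 8 genes, the gene lists and the split of KO libraries were chosen with earlier results of these data known. Named are the 8 genes, up to 4 called genes per list with the smallest p, those that complete a count of 5 or fewer, the 2 nearest profiles, the markers and Cth. Xist, Kdm5d, Mki67, Plod2, Bmp1 and Col6a4 to Col6a6 were added after their values were seen. A gene that the rule names is not reported here. No gene has 2 rows, and no column belonged to another series.

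Values of log2(FPKM + 1) were compared in R 4.3.3 by limma 3.58.1, using a variance trend, no covariate and both genotypes in the fit, two-sided, adjusted by Benjamini-Hochberg over 11831 genes, those at 1 FPKM or more in 6 or more libraries. A change on this scale understates that of low genes; folds are ratios of mean FPKM. Genes below that filter and the 3 ratios between chains were compared by exact permutation over all 924 assignments. The fits were also run on simulated data with independent libraries and the same spread in both genotypes. That run held no split like that of KO replicates 5 and 6, so it does not test the calls under it. Alternatives covered the pseudocount, the filter, 3 scalings, the variance model, library weights, the replicate number as a block, and each library or KO replicates 5 and 6 left out.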

Additional observations from a re-analysis of the deposited data

Results flagged for a closer look

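In groups of 6 libraries, the gap between an extreme library and its nearest neighbour, as a share of the group's range, was compared with Dixon's 95% critical value, for the 8 genes and 4 ratios, 24 groups in all; chance alone passes about 1 group in 20. Col6a1 was at 79.82 FPKM in KO replicate 5, where the other KO libraries held 119.8 to 138.9 (gap 0.678 of the range). Col6a2 was at 23.71 FPKM in the same library, where the others held 36.6 to 38.6 (0.866). Col8a2 was at 0.05 FPKM in WT replicate 2, where the others held 0 to 0.01 (0.8); the file gives 2 decimals. For Col14a1 and Col8a1, in which KO replicates 5 and 6 were both low, the gap to the nearest library is small and this comparison does not mark them.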

How the results depend on the processing

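Depth is unknown, so the precision of low genes such as Col8a2 and Col6a3 cannot be stated, and the KO spread differs with and without replicates 5 and 6. The calls of Col8a1, Col14a1 and Col16a1 kept direction and side of the threshold under all 24 alternatives each, and so did those of Col6a3 and Col12a1 except with a minimum of 5 FPKM. With KO replicates 1 to 4 only, and with library weights, the changes were -0.43 and -0.43 for Col8a1 and -1.61 and -1.62 for Col14a1. Col6a2 did not pass with the replicate number as a block (-0.29, adjusted p = 0.052), and its changes with 1 library left out ran from -0.32 to -0.19. Same-numbered libraries of the 2 genotypes did not deviate together (correlations of -0.27 to -0.06, and 0 of 6 KO libraries closest to their own number). No pairing by number was seen, but this check over all genes could miss a weak one. The block left 2 of the 8 genes lower in KO in place of 3, and 3610 of all genes higher and 3349 lower in place of 3858 and 3657. By exact permutation alone Col6a1 passed (-0.21, p = 0.039). Col8a2 changed sign with quantile normalization (-0.00099 against 0.0094, exact permutation p = 1). With a minimum of 5 FPKM only 1 gene of the 8 was called higher, since Col6a3 and Col12a1 were no longer among the tested genes (exact permutation p = 0.0022 each, unadjusted), and 2505 of all genes were higher and 2270 lower. The Col8a1 to Col8a2 ratio did not pass with 0.01 added (-1.42, exact permutation p = 0.095; range with 1 library left out -1.26 to -0.82). The ratios and the share were recomputed only with KO replicates 1 to 4, with 1 library left out and, for the ratios, with 0.01 added; no other scaling and no block was run for them. Planned but not run were another pseudocount for the share of collagen FPKM, which has none, and, for Col8a2, which was below the filter, the fits without a trend, with weights and with the block. Scaling moved the median change of all genes by less than 0.1 (-0.04 to 0.03).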
